A study of Mus musculus with 75 samples.

Results

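The genes described are 38 genes of homologous recombination, interstrand crosslink repair by the Fanconi anaemia pathway, and the checkpoint that guards both, followed in allografts of mouse medulloblastoma given MK4101, which inhibits signalling by sonic hedgehog (SHH). They were taken by gene symbol, and 36 of the 38 had a probe set on the array, of 21552 genes measured in all. Xrcc2 and Fancf were not analysed here. Rad51b is listed on the array under its older symbol Rad51l1, and Rad54b under E130016E03Rik. The 36 genes comprised 6 of the BRCA core and its partners, 7 of strand exchange, 5 helicases, nucleases and mismatch repair genes, 9 Fanconi genes, and 9 break sensors and checkpoint genes. Their timing was set against that of Mcm3, a subunit of the replicative helicase, and of Bub1, a kinase of the mitotic spindle checkpoint.

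Homologous recombination copies lost sequence from the sister chromatid. It therefore acts mainly in S and G2 phase, and it also protects and restarts stalled replication forks. The broken end is cut back by MRE11, RAD50, NBN, CtIP (Rbbp8) and EXO1, and BRCA1 and PALB2 bring in BRCA2 for the strand exchange that follows. In the Fanconi anaemia pathway a core complex attaches ubiquitin to the FANCD2 and FANCI pair at crosslinked DNA. ATR, TOPBP1, claspin (Clspn) and CHK1 (Chek1) form the checkpoint that senses stalled forks. Many of these genes are known to be transcribed in a cell-cycle dependent way, and granule neuron progenitors, from which SHH-type medulloblastoma arises, divide rapidly under SHH signalling.

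The tumours were medulloblastomas of Ptch1+/- mice, which have 1 intact copy of the gene for the SHH receptor that holds the pathway off, grown as allografts in nude CD1 hosts. All groups, vehicle included, shared this tumour source and host, and the hosts' own stroma, vessels and macrophages remain in such grafts. A single dose (QD) of MK4101 or vehicle was followed for 1, 6, 12, 24 and 36 h. At these times there were 4, 5, 3, 4 and 3 arrays at 40 mpk, 5, 3, 4, 4 and 4 arrays at 80 mpk, and 5, 5, 4, 5 and 3 arrays of vehicle, with doses in mpk, as labelled. Multiple dosing (BID) gave 1 array of 80 mpk and 4 of vehicle at 24 h, and 4 arrays of 80 mpk and 5 of vehicle at 36 h. No label ties the arrays of 1 group to different animals, so p-values measure the spread between these samples, which may be technical. The 40 and 80 mpk groups of a time share their vehicle arrays.

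The values are scaled intensities, with a mean of 1 on every array, and a difference is the log2 change of MK4101 minus vehicle ± its standard error (SE). A gene was called lower or higher where its limma p-value, adjusted over all 21552 genes, was under 0.05. Array medians lay between 0.109 and 0.131, and the number of arrays limits the precision. Gli1, the usual readout of the pathway, changed by -4.00, -4.48 and -3.19 at 6, 12 and 24 h after 80 mpk, and by 0.05 ± 0.23 at 36 h (adjusted p = 0.936). Markers of host cells moved with treatment at the later times. At 24 h after 80 mpk 9 of 10 macrophage genes, 8 of 8 fibroblast genes and 7 of 8 endothelial genes were called higher. The mean log2 intensity of the macrophage list spanned 2.79 to 3.65 on the 80 mpk arrays, against 1.45 to 2.47 on vehicle arrays. That of the fibroblast list spanned 3.34 to 4.21 at 80 mpk, against 1.99 to 3.28 with vehicle. At 24 h 4 of 8 adipocyte genes were also called higher. At 12 h limma called 0 genes of the macrophage and fibroblast lists and 2 of 8 endothelial genes lower. Skeletal muscle markers varied between arrays of the same group, and 23 of the 75 arrays had a muscle mean above 0. The part of these host cells in the results was not tested beyond the alternative fits given beside them. In bulk tumour RNA, fewer cycling tumour cells and less RNA per cell cannot be told apart.

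Across the single-dose course at 80 mpk, the number of the 36 repair genes called lower was 0 at 1 h, 3 at 6 h, 24 at 12 h, 34 at 24 h and 11 at 36 h. Of all genes on the array 0%, 1.18%, 5.99%, 15.3% and 5.64% were called lower at those times. The median change of the 36 genes was 0.02, -0.13, -0.42, -0.90 and -0.28 at 1, 6, 12, 24 and 36 h, and the median of all genes stayed between -0.04 and 0.03. All calls among the 36 genes at these times were falls, whereas 0.575%, 3.85%, 17.6% and 5.22% of all genes were called higher at 6, 12, 24 and 36 h. At 1 h limma's count was also 0 at 40 mpk, where 0% of all genes were called, and an unadjusted p under 0.05 was reached by 3 of the 36 genes at 40 mpk and by 1 at 80 mpk.

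**Figure D1:**
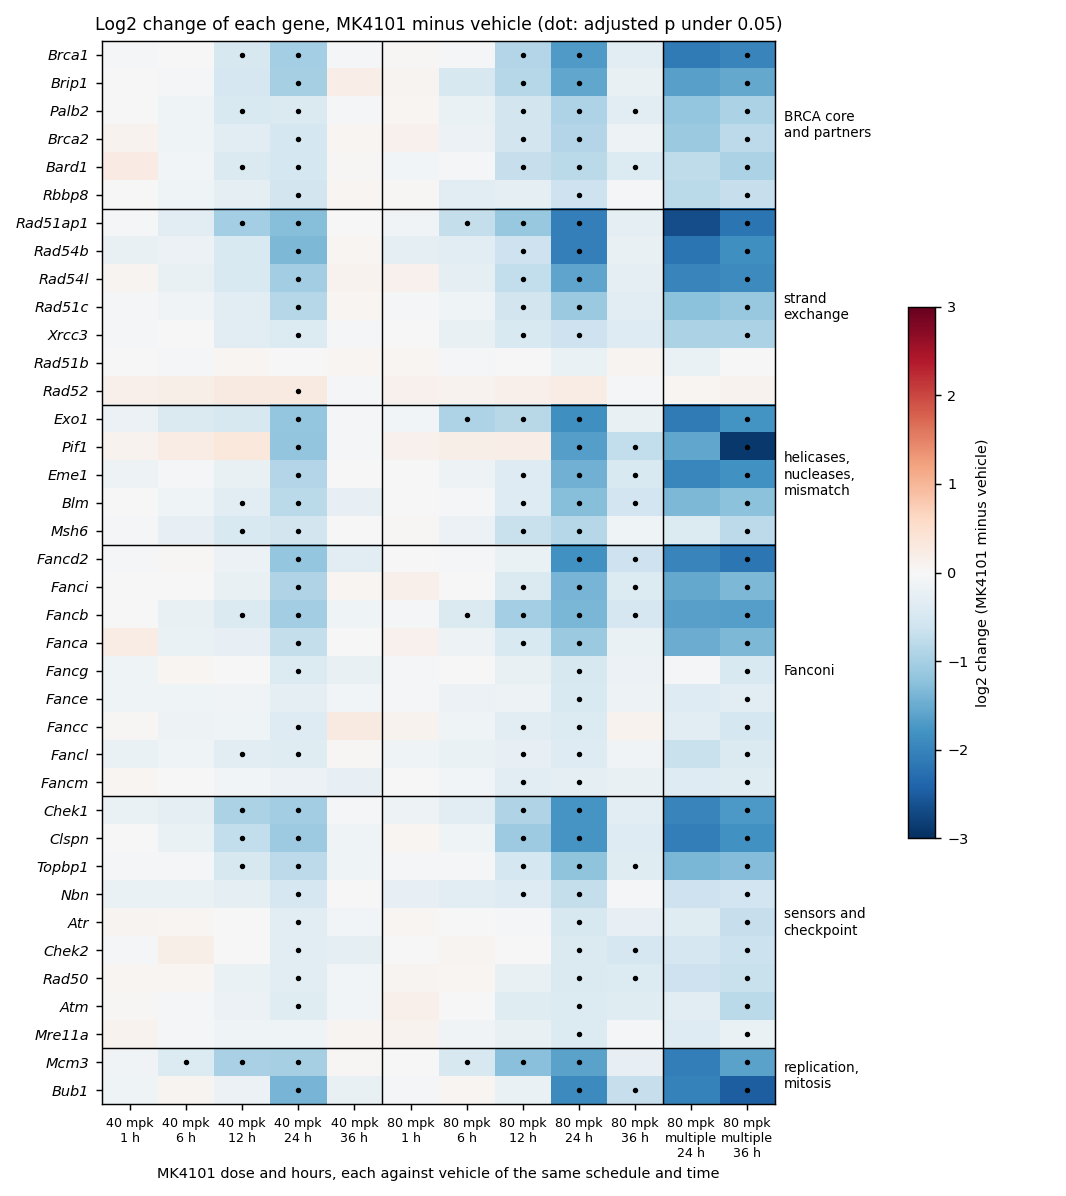
Heat map of the log2 change (MK4101 minus vehicle, colour) of the 36 repair genes, Mcm3 and Bub1 (down the page, by role) in each dose, schedule and time (across). Dots mark an adjusted p under 0.05; the multiple-dose 24 h column holds 1 treated array and was not tested. The 80 mpk 24 h and multiple-dose 36 h columns carry dots for all repair genes but Rad51b and Rad52.

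The first genes to be called, at 6 h, were Exo1, Rad51ap1 and Fancb. Exo1 encodes a 5′ exonuclease that resects broken ends. It read 1.32, 1.21 and 1.12 on the 3 arrays of 80 mpk, against 1.90, 1.72, 2.79, 2.43 and 2.85 on the 5 vehicle arrays, a change of -0.92 ± 0.19 (adjusted p = 0.00189). Rad51ap1, an accessory factor of strand exchange, read 0.807, 0.759 and 0.813 at 80 mpk, against 1.24, 1.15, 1.25, 1.19 and 1.72 with vehicle, a change of -0.71 ± 0.17 (adjusted p = 0.00927). For both genes every treated array lay below every vehicle array. Fancb, the X-linked member of the Fanconi core complex, read 0.178, 0.204 and 0.164 at 80 mpk, against 0.254, 0.200, 0.270, 0.263 and 0.254 with vehicle, a change of -0.44 ± 0.12 (adjusted p = 0.0388). Here 1 vehicle array lay inside the treated range. Brip1, a BRCA1-bound helicase, also lay below vehicle on every treated array, with a change of -0.47 ± 0.19 that was not called (adjusted p = 0.302). The 6 h count rests on few arrays: it was 1 without vehicle replicate 5, and 0 when only the 80 mpk and vehicle arrays of 6 h entered the fit. Leaving out the muscle-rich arrays kept just replicate 2 of 80 mpk at 6 h, so no count is given for that fit.

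Mcm3 was already lower at 6 h, with 0.890, 0.898 and 0.904 at 80 mpk against 1.19, 1.11, 1.31, 1.32 and 1.37 with vehicle, a change of -0.49 ± 0.13 (adjusted p = 0.0300). Bub1 read 3.20, 3.65 and 3.65 at 80 mpk, against 3.18, 3.08, 3.37, 3.59 and 3.43 with vehicle, and was not called (0.07 ± 0.12, adjusted p = 0.897). The Mcm3 groups did not overlap and the Bub1 groups did.

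At 12 h after 80 mpk most of the genes were lower. Of the BRCA core and partners 5 of 6 were called lower, with Rbbp8 (-0.26 ± 0.10, adjusted p = 0.106) the exception. Of strand exchange 5 of 7 were called, of the helicases, nucleases and mismatch genes 4 of 5, of the Fanconi genes 6 of 9, and of the sensors and checkpoint genes 4 of 9. On 24 of the 36 genes every treated array lay below every vehicle array, which held for 6.84% of all genes.

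The genes that fell most by 12 h were Rad51ap1 of strand exchange, Clspn of the checkpoint and Fancb of the Fanconi core (-1.03). Rad51ap1 read 0.479, 0.560, 0.612 and 0.633 at 80 mpk, against 1.09, 1.39, 1.02 and 1.59 with vehicle, a change of -1.14 ± 0.16 (adjusted p = 3.12e-07). Clspn, the adaptor through which ATR activates CHK1, read 1.10, 0.909, 1.02 and 1.41 at 80 mpk, against 2.45, 2.37, 2.02 and 2.59 with vehicle, a change of -1.10 ± 0.13 (adjusted p = 3.88e-09). Both groups were apart on all arrays for these genes, and the highest treated array of Clspn was replicate 4. Chek1, the checkpoint kinase itself, read 0.910, 1.12, 1.02 and 0.898 at 80 mpk, against 2.0, 2.19, 1.54 and 1.68 with vehicle (-0.90 ± 0.14, adjusted p = 4.60e-06). Brca1, a ubiquitin ligase subunit that promotes end resection, read 1.09, 0.991, 1.12 and 1.43 at 80 mpk, against 2.19, 2.21, 1.75 and 2.42 with vehicle (-0.89 ± 0.13, adjusted p = 8.34e-07). Neither gene had overlapping groups. Brip1 read 0.386, 0.290, 0.454 and 0.517 at 80 mpk, against 0.828, 0.731, 0.569 and 0.806 with vehicle (-0.85 ± 0.18, adjusted p = 6.80e-04).

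Other genes called at 12 h came from every role. Exo1 read 1.17, 0.947, 1.18 and 1.30 at 80 mpk, against 1.71, 2.66, 1.65 and 2.27 with vehicle (-0.83 ± 0.18, adjusted p = 9.61e-04). Rad54b, a DNA motor protein of strand exchange, read 0.224, 0.172, 0.170 and 0.198 at 80 mpk, against 0.321, 0.327, 0.266 and 0.265 with vehicle (-0.63 ± 0.17, adjusted p = 0.00708). Fanci, the partner of FANCD2, read 0.512, 0.468, 0.557 and 0.604 at 80 mpk, against 0.782, 0.771, 0.636 and 0.721 with vehicle (-0.44 ± 0.12, adjusted p = 0.0077). The Fanci groups were close, and its call was lost without 80 mpk replicate 2 at 12 h (-0.38). Without the muscle-rich arrays it was also lost, like that of Rad54b (adjusted p = 0.0692 for Fanci and 0.0931 for Rad54b). That fit kept replicates 1 and 3 of 80 mpk at 12 h. The other called genes were Brca2, Bard1, Palb2, Rad51c, Rad54l, Xrcc3, Blm, Fanca, Fancb, Fancc, Fancl, Fancm, Nbn, Topbp1, Msh6 and Eme1. Their changes ran between -1.03 ± 0.12 for Fancb and -0.25 ± 0.08 for Fancl.

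A second set had not been called at 12 h. Fancd2, whose ubiquitination marks crosslinked DNA, read 0.641, 0.685, 0.702 and 0.770 at 80 mpk, against 0.809, 0.840, 0.734 and 0.809 with vehicle (-0.19 ± 0.14, adjusted p = 0.512), and the groups overlapped. Pif1, a helicase that unwinds G-quadruplexes and supports DNA synthesis during recombination, read 1.69, 1.28, 1.37 and 1.53 at 80 mpk, against 1.16, 1.23, 1.10 and 1.59 with vehicle (0.21 ± 0.18, adjusted p = 0.595). Every treated array lay above 3 of the 4 vehicle arrays. Atr (-0.03 ± 0.10) and Chek2 (0.01 ± 0.11), both checkpoint kinases, were near 0. Atm (-0.37 ± 0.13, adjusted p = 0.0505) and Mre11a (-0.23 ± 0.08, adjusted p = 0.0574) lay just outside the threshold, and Rad50, Fance and Fancg were not called either.

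**Figure D2:**
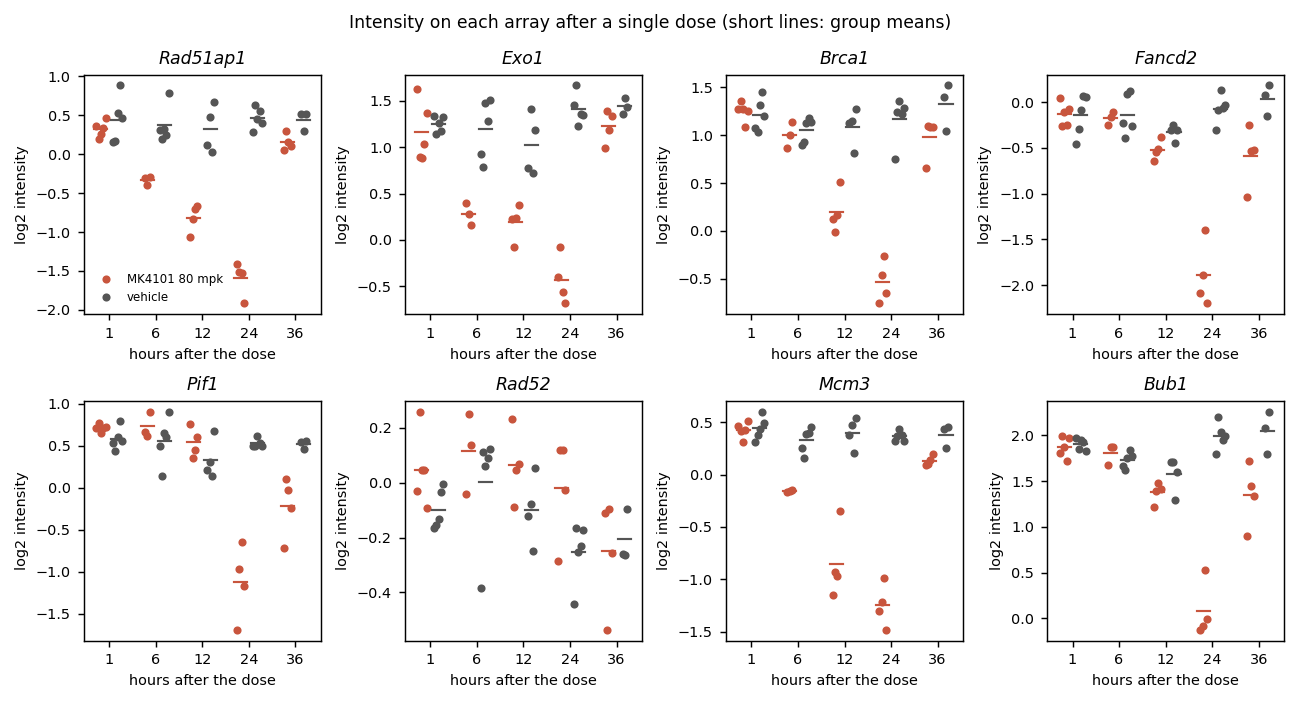
Log2 intensity (y axis) on each array after a single dose of 80 mpk (red, left) or vehicle (grey, right) by hours after the dose (x axis) for 6 repair genes, Mcm3 and Bub1; short lines are group means. Exo1, Rad51ap1 and Mcm3 are apart from vehicle at 6 h, Brca1 at 12 h, and Fancd2, Pif1 and Bub1 at 24 h.

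At 24 h after 80 mpk 34 of the 36 genes were called lower, with Rad51b and Rad52 the exceptions. All 6 BRCA core and partner genes, 5 of 7 strand exchange genes, all 5 helicase, nuclease and mismatch genes, all 9 Fanconi genes and all 9 sensor and checkpoint genes fell. The fall was 2-fold or more for 17 genes, and the share of all genes that fell as far was not counted. The groups did not overlap for 31 genes, against 14.3% of all genes. Among the called genes only Fancc, Fancm and Atm had overlapping groups.

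Strand exchange genes held the largest falls. Rad51ap1 read 0.377, 0.351, 0.347 and 0.265 at 80 mpk, against 1.22, 1.55, 1.37, 1.46 and 1.33 with vehicle, which is 4.16-fold lower (-2.06 ± 0.15, adjusted p = 3.23e-17). Rad54b read 0.0964, 0.128, 0.119 and 0.104 at 80 mpk, against 0.414, 0.388, 0.475, 0.481 and 0.564 with vehicle, which is 4.14-fold lower (-2.05 ± 0.16, adjusted p = 7.29e-17). In both genes the highest treated array stayed well under the lowest vehicle array. Rad54l, the paralogue of Rad54b, fell by 1.59 on the log2 scale, and Rad51c and Xrcc3 by 1.11 and 0.62.

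Rad52 and Rad51b, from the same role, did not follow. Rad52, which anneals single strands, read 0.820, 1.09, 1.09 and 0.981 at 80 mpk, against 0.737, 0.891, 0.840, 0.852 and 0.887 with vehicle (0.23 ± 0.10, adjusted p = 0.0597). Of its 4 treated arrays 3 were above every vehicle array, and it was called higher without 80 mpk replicate 1 (0.32), with the muscle and fibroblast marker means (0.38, adjusted p = 0.00285) or the macrophage mean (0.33, adjusted p = 0.0135) in the fit, and with a filter on dim genes (0.23, adjusted p = 0.0367). At 40 mpk it read 0.914, 1.11, 1.03 and 1.05, all above the same vehicle arrays, and was called (0.28 ± 0.10, adjusted p = 0.0236), among 14.5% of all genes called higher. That call was lost without vehicle replicate 1, 40 mpk replicate 2 or 40 mpk replicate 3, and after a second quantile normalization. Rad51b, the one gene called in none of the treatment comparisons, averaged 0.0341 at 80 mpk and 0.0395 with vehicle (-0.21 ± 0.11, adjusted p = 0.155), near the low end of the array's range.

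In the BRCA group Brca1 read 0.591, 0.727, 0.833 and 0.636 at 80 mpk, against 1.68, 2.36, 2.57, 2.33 and 2.44 with vehicle, which is 3.26-fold lower (-1.70 ± 0.13, adjusted p = 1.80e-17). Brip1 read 0.254, 0.308, 0.339 and 0.224 at 80 mpk, against 0.780, 0.816, 0.904, 0.821 and 0.740 with vehicle (-1.55 ± 0.17, adjusted p = 6.93e-11). Both were separated on all arrays, and the lowest vehicle array of Brca1 was replicate 1. The remaining partners moved less. Palb2, which bridges BRCA1 and BRCA2, changed by -0.93 ± 0.10, Brca2 by -0.88 ± 0.11, Bard1, the obligate partner of BRCA1, by -0.80 ± 0.11 and Rbbp8 by -0.62 ± 0.10.

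Among helicases and nucleases Exo1 read 0.759, 0.950, 0.676 and 0.621 at 80 mpk, against 2.73, 3.18, 2.34, 2.56 and 2.55 with vehicle, which is 3.58-fold lower (-1.84 ± 0.18, adjusted p = 2.22e-13). Pif1 read 0.310, 0.512, 0.640 and 0.447 at 80 mpk, against 1.41, 1.41, 1.54, 1.45 and 1.42 with vehicle, which is 3.13-fold lower (-1.65 ± 0.17, adjusted p = 5.07e-12). The Pif1 vehicle arrays were tight, and the treated arrays were spread more widely below them. Eme1, the partner of the MUS81 nuclease, changed by -1.43 ± 0.10, Blm, the Bloom helicase that dissolves joint molecules, by -1.28 ± 0.09, and the mismatch gene Msh6 by -0.85 ± 0.07.

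On the probe sets used, the Fanconi genes split by size of change. The second probe sets of Fanca and Fancm gave these genes the reverse order, as described below. Fancd2 read 0.235, 0.271, 0.381 and 0.218 at 80 mpk, against 0.809, 0.942, 1.09, 0.960 and 0.981 with vehicle, which is 3.53-fold lower (-1.82 ± 0.13, adjusted p = 1.50e-17). Fanci read 0.274, 0.306, 0.362 and 0.218 at 80 mpk, against 0.683, 0.804, 0.733, 0.766 and 0.790 with vehicle, which is 2.64-fold lower (-1.40 ± 0.11, adjusted p = 3.99e-16). Both genes of the ubiquitinated pair were clear of vehicle on all arrays. In the core complex Fancb (-1.37 ± 0.11) and Fanca (-1.11 ± 0.11) fell more than 2-fold. The core members Fancg (-0.48 ± 0.10), Fance (-0.45 ± 0.12) and Fancc (-0.42 ± 0.09), the ubiquitin ligase subunit Fancl (-0.39 ± 0.08) and the translocase Fancm (-0.29 ± 0.10) moved by less than 0.5.

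The checkpoint genes split in the same manner. Clspn read 0.524, 0.658, 0.882 and 0.626 at 80 mpk, against 1.89, 2.40, 2.42, 2.33 and 2.28 with vehicle, which is 3.41-fold lower (-1.77 ± 0.13, adjusted p = 3.98e-18). Chek1 read 0.687, 0.720, 0.748 and 0.650 at 80 mpk, against 2.18, 2.46, 2.43, 2.35 and 2.50 with vehicle, which is 3.40-fold lower (-1.77 ± 0.14, adjusted p = 1.17e-16). Each group of Chek1 was narrow and the gap between them wide. Topbp1, which switches on ATR, changed by -1.20 ± 0.09. The kinases Atr (-0.48 ± 0.09), Chek2 (-0.44 ± 0.11) and Atm (-0.41 ± 0.12) and the end-binding complex of Nbn (-0.71 ± 0.10), Rad50 (-0.44 ± 0.09) and Mre11a (-0.40 ± 0.08) moved less.

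The 24 h count was between 32 and 34 when single arrays were left out. It was 31 with the muscle and fibroblast marker means as covariates and 31 with the macrophage marker mean as a covariate (added after seeing the data). Without the muscle-rich arrays, a fit that kept replicates 1 and 2 of 80 mpk at 24 h, it was 32. For 13 of the genes the array held further probe sets, 16 in all, of which 10 were called lower, 0 higher and 6 were not called. The second probe sets of Fanca (-0.22 ± 0.10) and Palb2 (-0.17 ± 0.09) were not called, nor were those of Fancc, Rad51c and Topbp1 and the third of Rad54l, whereas that of Fancm (-1.06 ± 0.17) moved more than the one used (-0.29 ± 0.10). The size of change of these genes depends on the probe set.

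The question of timing, whether the repair genes followed the replication gene or the mitotic gene, was addressed with the change at 12 h as a share of that at 24 h, each against its own vehicle. Mcm3 at 12 h read 0.451, 0.524, 0.511 and 0.784 at 80 mpk, against 1.30, 1.39, 1.16 and 1.45 with vehicle (-1.25 ± 0.13, adjusted p = 1.72e-11). At 24 h it read 0.406, 0.431, 0.504 and 0.358 at 80 mpk, against 1.25, 1.30, 1.36, 1.30 and 1.25 with vehicle (-1.61 ± 0.12, adjusted p = 1.68e-17), so that 77.5% of its 24 h change was present at 12 h. Bub1 at 12 h read 2.32, 2.62, 2.79 and 2.67 at 80 mpk, against 3.27, 3.28, 2.45 and 3.02 with vehicle (-0.20 ± 0.12, adjusted p = 0.355). At 24 h Bub1 read 0.918, 0.946, 1.44 and 0.991 at 80 mpk, against 3.48, 4.60, 4.10, 3.87 and 3.99 with vehicle (-1.92 ± 0.11, adjusted p = 4.04e-21), and the share at 12 h was 10.5%. Mcm3 had thus separated from vehicle by 12 h and Bub1 had not.

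The repair genes spread over the whole span between these 2 genes, and some lay beyond it. Bard1 (85.7%), Msh6 (77.9%), Fancb (75.1%) and Xrcc3 (74.2%) had shares like that of Mcm3. Atm (89.6%) and Fancc (80%) also had high shares, of small 24 h changes. Clspn (62.2%), Rad51ap1 (55.5%), Brip1 (55.0%), Brca1 (52.4%), Chek1 (50.9%) and Exo1 (45.2%) were intermediate. Fanci (31.7%), Rad54b (30.5%), Blm (29.8%) and Eme1 (26.7%) came later, and Fancd2 had the same share as Bub1, 10.5%. Atr (6.84%), Chek2 (-2.23%) and Pif1 (-12.8%) had essentially none of their 24 h change at 12 h. These shares are descriptions without an error, and they are not informative for genes with small changes such as Rad51b, Rad52 and Fancm. They are loose for Atm, Fancc, Atr and Chek2, whose 24 h changes lay between -0.48 and -0.41. Bard1 was dim, at 0.139 with vehicle at 24 h, near the array medians of 0.109 to 0.131.

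**Figure D3:**
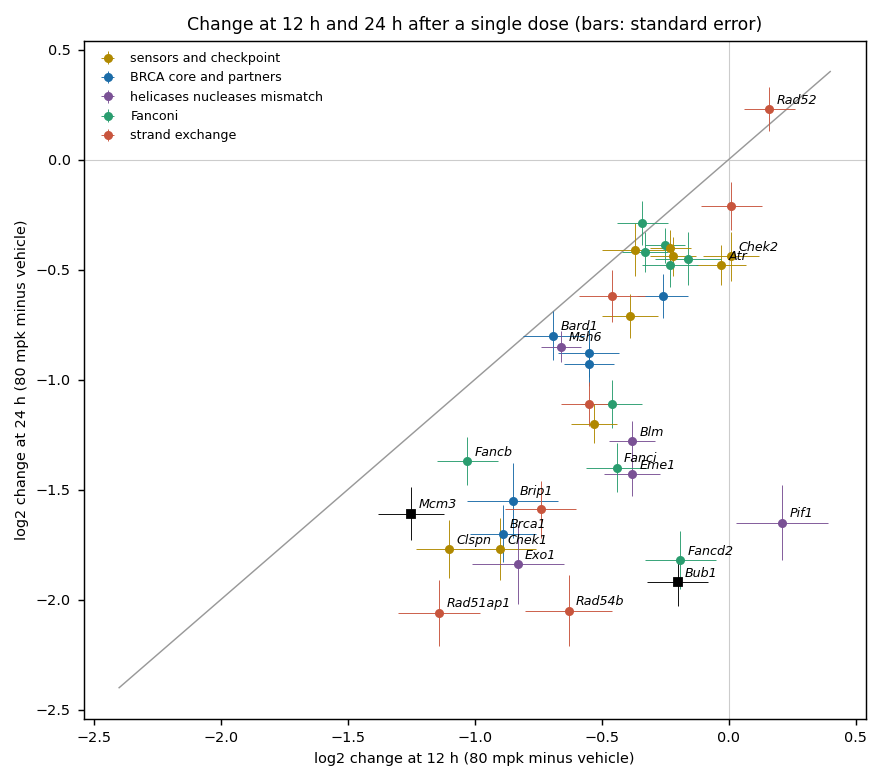
Log2 change of each gene at 12 h (x axis) and at 24 h (y axis) after 80 mpk, with standard errors as bars; circles are repair genes coloured by role, black squares Mcm3 and Bub1, and the diagonal marks equal change. Fancb and Bard1 lie toward the Mcm3 side, and Fancd2 and Pif1 lie near or to the right of Bub1, far below the diagonal.

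The differences between time points were tested as contrasts of effects. The 24 h effect was lower than the 12 h effect for 18 of the 36 genes, a call made for 8.02% of all genes in this direction. The largest further falls were those of Pif1 (-1.86 ± 0.25, adjusted p = 1.00e-07), Fancd2 (-1.63 ± 0.20, adjusted p = 5.24e-09), Rad54b (-1.42 ± 0.23, adjusted p = 5.93e-06) and Eme1 (-1.05 ± 0.15, adjusted p = 5.83e-07). Bub1 fell further by 1.72 (adjusted p = 7.84e-12), and Mcm3 changed by a further -0.36 ± 0.17 that was not called (adjusted p = 0.147). Bard1, Msh6, Fancb, Xrcc3, Atm and Fancc, which had high 12 h shares, were not called in this contrast. It uses the same 12 h and 24 h effects as the shares, so this adds no separate evidence of an early course. Genes with lower shares, such as Brca2 (63.3%), Palb2 (59.2%) and Rbbp8 (41.6%), were not called either. The 12 h effect was lower than the 6 h effect for Clspn (-0.96 ± 0.19, adjusted p = 0.0178), Brca1 (-0.84 ± 0.19, adjusted p = 0.0428) and Msh6 (-0.48 ± 0.11, adjusted p = 0.0490), 3 of 36, where 0.144% of all genes were called in this direction. This small count ran between 0 and 3 when single arrays were left out. It was 0 without 80 mpk replicate 2 or 3 at 6 h, and without 80 mpk replicate 3 at 12 h. It was 1 without 80 mpk replicate 1 or vehicle replicate 1 or 2 at 6 h, and without 80 mpk replicate 1 or 2 or vehicle replicate 1, 2 or 4 at 12 h.

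Each gene was also set against Mcm3 and against Bub1 on the same arrays. At 12 h the change of 33 of the 36 genes, including those that had not fallen, lay above that of Mcm3, as it did for 96.9% of all genes, and Clspn (0.15 ± 0.10), Rad51ap1 (0.11 ± 0.13) and Fancb (0.22 ± 0.15) could not be distinguished from it. At the same time 12 genes had fallen further than Bub1, which was so for 1.29% of all genes. They were Brca1, Bard1, Palb2, Rad51ap1, Rad54l, Exo1, Fancb, Brip1, Chek1, Clspn, Topbp1 and Msh6, and their differences ran between -0.94 ± 0.17 (Rad51ap1, adjusted p = 5.95e-05) and -0.33 ± 0.09 (Topbp1, adjusted p = 0.015). The count was 7 without 80 mpk replicate 2.

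At 24 h Rad51ap1 (-0.44 ± 0.12, adjusted p = 6.69e-04) and Rad54b (-0.44 ± 0.17, adjusted p = 0.0147) had fallen further than Mcm3, a call made for 0.237% of all genes, and the change of 23 genes lay above that of Mcm3 (98.6% of all genes). Without vehicle replicate 5, and with the mean of all probe sets, 1 gene was called as falling further. The change of 28 genes, Rad52 and Rad51b among them, lay above that of Bub1 (99.4% of all genes). The 8 genes that could not be told from Bub1 were Brca1, Rad51ap1, Rad54b, Exo1, Fancd2, Chek1, Clspn and Pif1, with differences between -0.13 ± 0.16 (Rad51ap1) and 0.28 ± 0.15 (Pif1). Brca1, Exo1, Fancd2, Chek1, Clspn and Pif1 were also among the 11 genes that could not be told from Mcm3. The rest of those 11 were Rad54l, Fancb, Fanci, Brip1 and Eme1. At 6 h Exo1 had fallen further than Mcm3 (-0.43 ± 0.15, adjusted p = 0.0122), where 0.311% of all genes were called, and the change of 24 genes lay above that of Mcm3 (78.5% of all genes). At this time Exo1, Rad51ap1 and Fancb had fallen further than Bub1, where 0.710% of all genes were called. Both 6 h counts of genes that fell further were 0 without 80 mpk replicate 3, and the count against Bub1 was 1 without replicate 2.

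**Figure D4:**
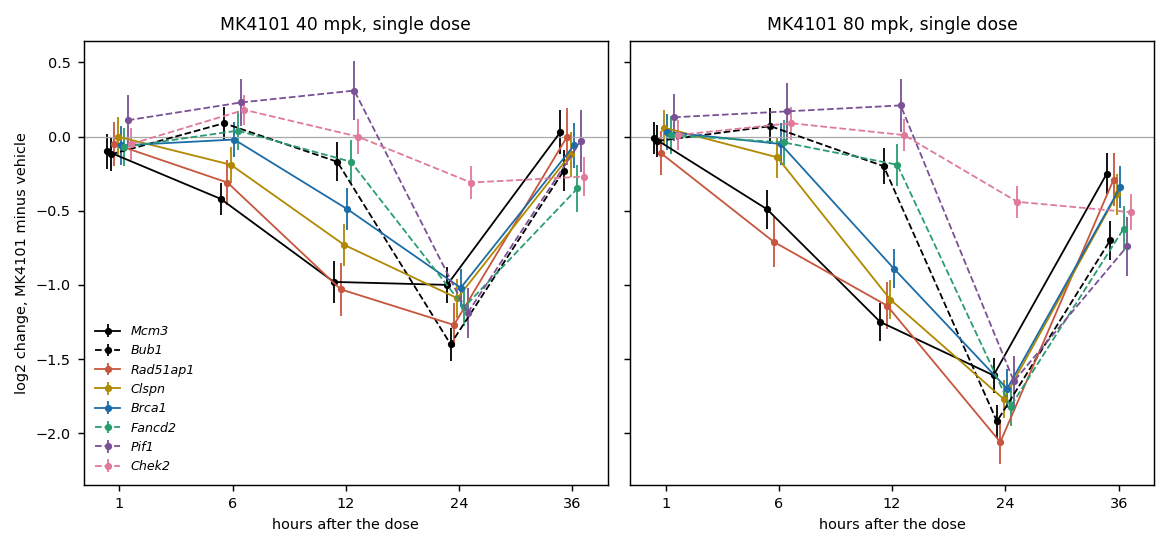
Log2 change (y axis, MK4101 minus vehicle, bars are standard errors) by hours after a single dose (x axis) at 40 mpk (left) and 80 mpk (right). Solid lines (Mcm3, Rad51ap1, Clspn, Brca1) decline by 12 h at 80 mpk; dashed lines (Bub1, Fancd2, Pif1, Chek2) are near 0 at 12 h and below it at 24 h.

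Promoter windows bear on genes that move together. RefSeq (GRCm38.p6) windows, 250 bases before to 50 after the annotated start, were matched for 29 of the 36 genes, all but Rad54b, Exo1, Fancd2, Rbbp8, Rad50, Nbn and Pif1. Of the 29 windows 8 (27.6%) held an 8-letter E2F motif (TTTCCCGC, TTTCGCGC, TTTGCCGC or TTTGGCGC, on either strand), namely those of Brca2, Bard1, Rad51c, Fancg, Chek2, Clspn, Topbp1 and Msh6. Of all 27025 genes with a window 2.6% did. E2F factors are known to switch on replication genes at the G1/S boundary. The 7-letter form, the same 4 motifs without their first T, chosen after the windows had been seen and contained in every match of the longer one, was in 18 of 29 windows (62.1%), against 10.9% of all. The cell-cycle homology region of mitotic genes (TTTGAA or TTCGAA, either strand) was in 4 windows (13.8%), those of Bard1, Rad51b, Atr and Eme1, against 21.7% of all. CCAAT, a common promoter element, was in 18 (62.1%), against 41.1% of all. Among genes called lower at 12 h 6 of 21 windows held the 8-letter E2F motif, and among those not called 2 of 8 did. For the 7-letter form these counts were 14 of 21 and 4 of 8, for CCAAT 13 of 21 and 5 of 8, and for the cell-cycle homology region 2 of 21 and 2 of 8. A match is a description of letters and shows no binding.

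The windows of Rad51ap1 and Clspn, which fell most at 12 h, are shown beside those of Mcm3 and Bub1, 5′ to 3′ on the gene's strand. Mcm3 had the early course and Bub1 the late one, while the 12 h shares of Rad51ap1 (55.5%) and Clspn (62.2%) were intermediate. Capitals mark the 7-letter E2F form, on either strand, in Rad51ap1, Clspn and Mcm3, and the cell-cycle homology region in Bub1. Rad51ap1 had no match of the longer E2F motif, so its capitals rest on the form chosen after the windows had been seen. The windows shown do not tie a motif to a time course, and the counts above cover all windows. Chek2 (12 h share -2.23%) also held the 7-letter form, and Bard1 (85.7%) held both that form and the cell-cycle homology region.
Rad51ap1 (chr6:126939538-126939837, minus strand): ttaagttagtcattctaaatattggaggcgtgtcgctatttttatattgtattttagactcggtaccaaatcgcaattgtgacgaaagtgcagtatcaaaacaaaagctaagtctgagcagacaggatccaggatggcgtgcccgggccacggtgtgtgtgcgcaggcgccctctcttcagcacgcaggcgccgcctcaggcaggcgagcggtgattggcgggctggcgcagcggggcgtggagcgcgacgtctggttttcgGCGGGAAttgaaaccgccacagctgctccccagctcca
Clspn (chr4:126556730-126557029, plus strand): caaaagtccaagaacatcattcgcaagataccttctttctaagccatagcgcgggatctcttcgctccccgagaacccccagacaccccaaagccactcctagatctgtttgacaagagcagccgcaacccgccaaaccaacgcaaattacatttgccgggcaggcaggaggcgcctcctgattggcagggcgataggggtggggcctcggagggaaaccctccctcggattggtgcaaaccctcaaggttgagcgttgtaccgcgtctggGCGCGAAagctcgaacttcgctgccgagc
Mcm3 (chr1:20820263-20820562, minus strand): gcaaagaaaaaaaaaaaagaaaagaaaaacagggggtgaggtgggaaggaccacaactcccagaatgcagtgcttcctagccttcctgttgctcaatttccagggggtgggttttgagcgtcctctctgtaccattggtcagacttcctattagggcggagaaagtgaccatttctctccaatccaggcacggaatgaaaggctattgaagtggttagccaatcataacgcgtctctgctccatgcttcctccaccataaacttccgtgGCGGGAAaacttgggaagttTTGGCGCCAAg
Bub1 (chr2:127831810-127832109, minus strand): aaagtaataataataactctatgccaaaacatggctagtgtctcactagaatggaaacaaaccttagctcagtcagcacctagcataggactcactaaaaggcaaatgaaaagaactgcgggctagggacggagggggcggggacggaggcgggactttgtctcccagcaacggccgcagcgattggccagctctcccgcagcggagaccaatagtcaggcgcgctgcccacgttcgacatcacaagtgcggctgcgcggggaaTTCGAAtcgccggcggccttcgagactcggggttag
The first base of the E2F form lay at position 13 after the start in Rad51ap1 and 22 in Clspn, and the 3 matches of Mcm3, of which the last 2 overlap, began at 20, 40 and 43. Counting starts at 1 on the first transcribed base. The Bub1 match began at 15.

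The change was smaller at 36 h after a single dose than at 24 h. Of the 36 genes 23 had a 36 h effect above their 24 h effect, a call made for 3.99% of all genes. Rad54b recovered most (1.81 ± 0.24, adjusted p = 7.94e-08), followed by Rad51ap1 (1.76 ± 0.23, adjusted p = 1.04e-07) and Exo1 (1.63 ± 0.27, adjusted p = 9.45e-06). This contrast shares the 24 h arrays with the 24 h minus 12 h contrast. At 36 h Rad51ap1 read 1.04, 1.23, 1.11 and 1.07 at 80 mpk, against 1.43, 1.22 and 1.43 with vehicle (-0.29 ± 0.18, adjusted p = 0.330), so its groups overlapped again. Mcm3 stood at -0.25 ± 0.14 (adjusted p = 0.268) and Bub1 at -0.70 ± 0.13 (adjusted p = 7.57e-05).

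The 11 genes still called lower at 36 h were Bard1, Palb2, Blm, Fancb, Fancd2, Fanci, Rad50, Chek2, Topbp1, Eme1 and Pif1. Pif1 read 0.606, 1.07, 0.978 and 0.849 at 80 mpk, against 1.46, 1.38 and 1.47 with vehicle (-0.74 ± 0.20, adjusted p = 0.00706). Fancd2 read 0.488, 0.842, 0.692 and 0.696 at 80 mpk, against 1.05, 0.902 and 1.14 with vehicle (-0.62 ± 0.15, adjusted p = 0.00370). In both the lowest array was 80 mpk replicate 1, and no treated array reached the vehicle range. Chek2 (-0.51 ± 0.12, adjusted p = 0.00228) had been at -0.44 ± 0.11 at 24 h. At 36 h the change of 28 genes lay above that of Bub1 (91.6% of all genes), a count that was 16 without vehicle replicate 3, and 8, among them Fancd2, Pif1, Blm and Chek2, could not be told from it. Against Mcm3 limma called 0 of the 36 genes at 36 h in either direction, with 0.394% of all genes called below it and 7.46% above, and 4 of the 36 had an unadjusted p under 0.05. Without 80 mpk replicate 2, 1 gene was called as falling further than Mcm3.

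The 36 h count was unstable. It was 3 without 80 mpk replicate 1, 5 without vehicle replicate 3, 7 without vehicle replicate 1, 2 when the fit held just the 36 h single-dose groups of 80 mpk and vehicle, and 4 without the muscle-rich arrays. Macrophage markers were also apart at this time, with 9 of 10 called higher and list means of 2.51 to 2.90 on 80 mpk arrays, against 0.69 to 2.26 on vehicle arrays. With the macrophage mean as a covariate, added after seeing the data, 1 gene was called lower at 36 h, and with the muscle and fibroblast means 7 were.

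Under repeated dosing the repair genes were low at 36 h. In the multiple-dose group 34 of 36 were called lower, where 17.7% of all genes were lower and 19.8% higher, with a median change of -0.95. The groups did not overlap for 31 genes, against 12.9% of all genes. Pif1 read 0.127, 0.354, 0.329 and 0.328 at 80 mpk, against 2.01, 1.76, 1.77, 2.55 and 1.88 with vehicle, which is 7.48-fold lower (-2.90 ± 0.17, adjusted p = 6.28e-22). Rad51ap1 read 0.190, 0.511, 0.326 and 0.372 at 80 mpk, against 1.81, 1.25, 1.31, 1.48 and 1.73 with vehicle, which is 4.55-fold lower (-2.19 ± 0.15, adjusted p = 1.17e-18). Replicate 1 was the lowest treated array in both genes. Fancd2 read 0.222, 0.271, 0.204 and 0.218 at 80 mpk, against 0.910, 1.15, 0.873, 1.10 and 1.08 with vehicle, which is 4.48-fold lower (-2.16 ± 0.13, adjusted p = 5.80e-21). Brca1 read 0.427, 0.869, 0.650 and 0.757 at 80 mpk, against 2.48, 2.60, 2.35, 2.81 and 2.79 with vehicle, which is 3.97-fold lower (-1.99 ± 0.13, adjusted p = 1.37e-20). The uncalled genes were again Rad52 (0.11 ± 0.10) and Rad51b (0.01 ± 0.11). Host markers were higher here as well, with 9 of 10 macrophage genes and 8 of 8 fibroblast genes called. The count was 31 with the macrophage mean as a covariate and 30 with the muscle and fibroblast means.

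The multiple-dose effect at 36 h was lower than the single-dose effect for 25 of the 36 genes, a call made for 5.36% of all genes. Pif1 (-2.16 ± 0.26, adjusted p = 3.38e-09), Rad51ap1 (-1.89 ± 0.23, adjusted p = 7.45e-09), Brca1 (-1.65 ± 0.19, adjusted p = 1.38e-09) and Rad54l (-1.64 ± 0.20, adjusted p = 5.16e-09) differed most. Part of the difference lay in the vehicle arrays for Pif1 (1.76 to 2.55 under multiple dosing, 1.38 to 1.47 after a single dose) and Rad54l (1.38 to 1.93 and 1.28 to 1.36). The vehicle arrays of the schedules overlapped for Rad51ap1 and Brca1. Mcm3 differed by -1.35 ± 0.18 and Bub1 by -1.77 ± 0.17. Gli1 changed by -2.90 ± 0.21 at 36 h under multiple dosing, against 0.05 ± 0.23 after a single dose. The labels do not say from which dose the 36 h of multiple dosing were counted. Chek2 and Rad50, low under both schedules, were not called in this contrast. On the single multiple-dose array at 24 h, which was not tested, 19 of the 36 genes lay 2-fold or more below the vehicle mean, as did 2.59% of all genes, and the median change was -1.14. Rad51ap1 read 0.216 on it, against 1.21, 1.27, 1.41 and 1.55 with vehicle.

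**Figure D5:**
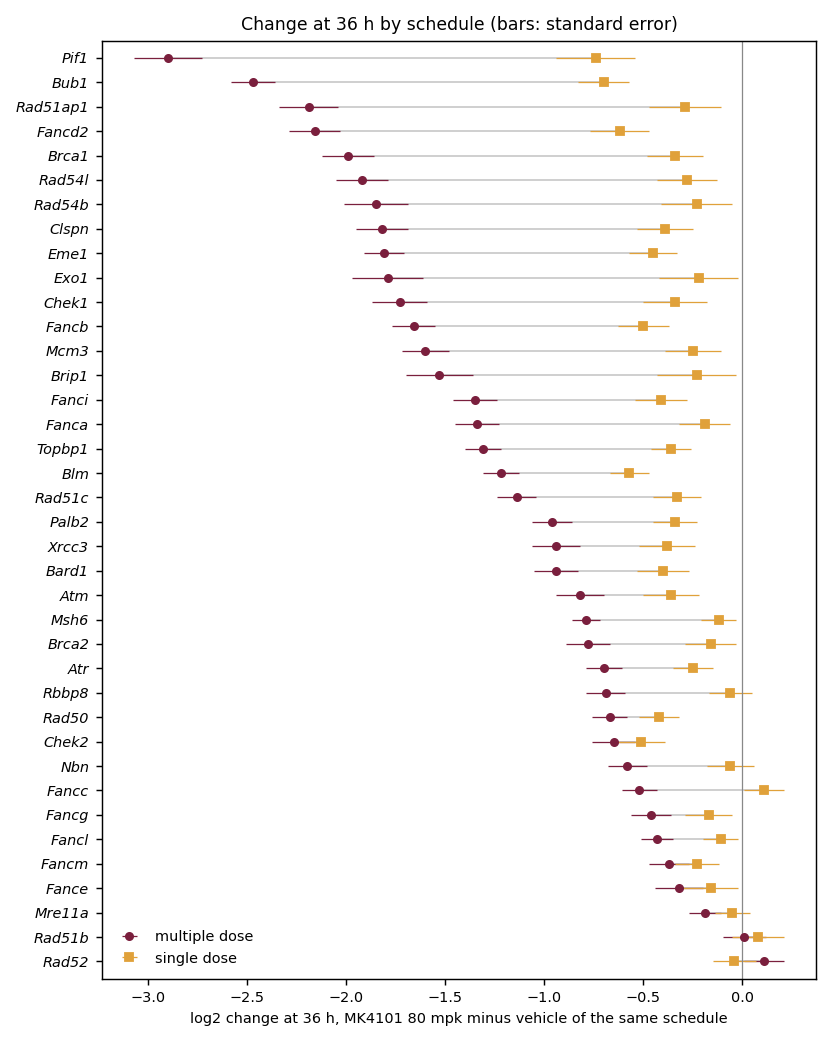
Log2 change at 36 h (x axis, MK4101 80 mpk minus vehicle of the same schedule, bars are standard errors) for each gene (y axis, ordered by the multiple-dose change) under multiple dosing (dark circles) and after a single dose (yellow squares). Under multiple dosing Pif1, Bub1, Rad51ap1 and Fancd2 are lowest. The schedules lie close together at several genes, among them Rad51b, Rad52, Fancm, Mre11a, Chek2 and Fance.

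At the lower dose the calls of repair genes came at 12 and 24 h. Mcm3 was called lower at 40 mpk at 6 h (-0.42 ± 0.11, adjusted p = 0.0295) and at 12 h (-0.98 ± 0.14, adjusted p = 3.15e-07). Bub1 was called at neither time (0.09 ± 0.11 and -0.17 ± 0.13). At 40 mpk limma called 0 of the 36 genes at 6 h (1.05% of all genes were lower), 11 were lower at 12 h (2.59%), 31 at 24 h (12.1%) and 0 at 36 h (0.39%), and 5 of the 36 had an unadjusted p under 0.05 at 6 h and 5 at 36 h. At 24 h 7 of 10 macrophage, 5 of 8 fibroblast and 2 of 8 endothelial genes were called higher at 40 mpk. The 24 h count was 26 with the muscle and fibroblast means as covariates and 27 with the macrophage mean. Leaving out the muscle-rich arrays kept just replicate 4 of 40 mpk, so no count is given for that fit. The 11 genes at 12 h were Brca1, Bard1, Palb2, Rad51ap1, Blm, Fancb, Fancl, Chek1, Clspn, Topbp1 and Msh6. Rad51ap1 read 0.634, 0.577 and 0.634 on these arrays, against the vehicle values given above, a change of -1.03 ± 0.18 (adjusted p = 2.78e-05), and no treated array reached vehicle. The count at 12 h was 7 without vehicle replicate 1, vehicle replicate 2 or 40 mpk replicate 2, and 6 with only the groups compared.

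Between the doses 14 genes were lower at 80 than at 40 mpk at 24 h, where 1.2% of all genes were. Rad51ap1 (-0.79 ± 0.16, adjusted p = 0.00236), Chek1 (-0.72 ± 0.14, adjusted p = 0.00174), Rad54b (-0.70 ± 0.17, adjusted p = 0.0130), Fancd2 (-0.68 ± 0.14, adjusted p = 0.00284), Clspn (-0.68) and Brca1 (-0.68 ± 0.13, adjusted p = 0.00119) differed most. All 36 genes had a value below 0 in this contrast, with a median of -0.31, against -0.01 for all genes. They were read on the same arrays, so they are not separate observations of a dose effect. The count was 7 without 40 mpk replicate 1 and 9 without 80 mpk replicate 1 or 4. At 6 h limma called 0 genes as different between doses (0% of all genes, and 4 of the 36 at an unadjusted p under 0.05). At 12 h 1 gene did, Fancb (-0.58 ± 0.13, adjusted p = 0.0440, 0.0325% of all genes), and at 36 h 1, Eme1 (-0.45 ± 0.12, adjusted p = 0.0486, 0.543% of all genes). Both single calls were lost in several alternatives: both counts were 0 without any 1 of the 3 arrays of 40 mpk of that time, that at 12 h also without 80 mpk replicate 2 or 3, and that at 36 h without 80 mpk replicate 1 or 4. Without 80 mpk replicate 2 at 36 h 5 genes were called.

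Vehicle arrays were also compared across their 5 times. The moderated F test called 3 of the 36 genes, a share near the 6.28% of all genes, and 5 after a second quantile normalization. Chek1 averaged 1.24, 0.77, 0.87, 1.25 and 1.29 on the log2 scale at 1, 6, 12, 24 and 36 h (adjusted p = 0.0145), Rad54b -1.28, -1.74, -1.77, -1.12 and -1.14 (adjusted p = 0.00540), and Nbn -0.22, -0.52, -0.54, -0.11 and -0.18 (adjusted p = 0.00843). All 3 were lowest at 6 and 12 h, as was Bub1 (1.91, 1.73, 1.58, 2.0 and 2.04, adjusted p = 0.0252). Every comparison above was made with vehicle of its own time.

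Other repair genes, not among the 36, were counted from lists of their pathways at 24 h after 80 mpk, when 15.3% of all genes were lower and 17.6% higher. Of 57 further genes of recombination and crosslink repair 36 were lower and 2 higher, with a median of -0.40. Ube2t, the ubiquitin-conjugating enzyme that serves FANCL, fell most (-1.80 ± 0.12), followed by Mms22l (-1.65 ± 0.12), which acts at stalled forks, and the fork protection gene Tipin (-1.59 ± 0.21). The 2 that rose were Trp53bp1 (0.30 ± 0.08), which restrains resection, and Zswim7 (0.29 ± 0.08). Of 18 end-joining genes 8 were lower, among them Xrcc6 (-0.84 ± 0.07), the Ku70 end-binding subunit, and Parp1 (-0.81 ± 0.15), and 2 were higher, the nuclease gene Dclre1c (0.63 ± 0.15) and Shld1 (0.31 ± 0.09). Of 24 excision repair genes 11 were lower and 3 higher, led by the uracil glycosylase Ung (-1.82 ± 0.15) and by the glycosylase Neil2 (0.65 ± 0.13). Of 4 mismatch repair genes 3 were lower (Pms1, Msh3 and Pms2, between -0.68 and -0.47). Of 7 translesion genes 4 were lower, among them Rad18 (-1.63 ± 0.16), the ligase that marks PCNA, and 3 polymerase genes were higher, Poli (0.28 ± 0.09), Polk (0.27 ± 0.08) and Rev3l (0.27 ± 0.07).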

How the data were processed

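Expression was read on 75 single-channel arrays, 1 per sample, in 19 groups of schedule, dose and time taken from the labels. Each array has a deposited intensity for each of 43681 probe sets, which the authors made with RMA, per the submitters' processing notes; its settings and the genome build are not given in the sources used here. All values were above 0 (0.0166 to 99.9) with a mean of 1 on each array, so they were read as linear, not as the log2 values the design had assumed, and log2 was taken without a pseudocount. Probe sets with 1 symbol (30342) were kept, symbols were updated through the RefSeq gene table (15257 by accession, 15032 by symbol or synonym, 53 unmatched), and the probe set with the highest mean stood for a gene, with no filter on dim genes.

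One limma 3.58.1 fit (R 4.3.3, 1 mean per group, all 75 arrays, 56 residual degrees of freedom) gave all moderated t and F tests, adjusted by the Benjamini-Hochberg method over 21552 genes with a threshold of 0.05. The comparison with Mcm3 or Bub1 used the same design on each gene's log2 value minus theirs. The group with 1 array was not tested. The fit was tested on simulated data. Members, gene lists and tests were chosen with earlier results of these data known. Array values are given for the 2 called genes of each role that fell most at 24 h, genes called higher, genes called at 6 h, Mcm3 and Bub1. Python 3.11.15 with pandas 2.3.3 and matplotlib 3.10.9 did the rest. Alternatives were the mean of all probe sets, a filter on dim genes, a second quantile normalization, another variance prior, only the groups compared, the replicate number as a block, host marker means as covariates, and fits without the muscle-rich arrays or without each array in turn.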

Additional observations from a re-analysis of the deposited data

Results flagged for a closer look

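In the vehicle group of 24 h, replicate 1 lay apart from the other 4 arrays for 2 genes. Brca1 read 1.68 on it and 2.33 to 2.57 on the others, a gap of 0.766 of the group's range, and Clspn read 1.89 against 2.28 to 2.42, a gap of 0.758. Of 52 sets of arrays examined these 2 passed the limit of Dixon's test, and chance gives about 1 in 20. The 24 h call count was 34 without this array.

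The effect of 80 mpk differed between times or schedules by a test of the difference for 3 of the 36 genes between 12 and 6 h, for 18 between 24 and 12 h, for 23 between 36 and 24 h, and for 25 between multiple and single dosing at 36 h.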

How the results depend on the processing

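Of 455 values of single genes under an alternative, 448 kept their direction and side of the threshold, 3 lost the call, 4 gained it and 0 turned. Counts that moved by over 1.5 times were as follows, out of 36 genes. With the mean of all probe sets, 0 genes differed between doses at 12 h (1 as reported), 0 fell further than Mcm3 at 6 h (1) and 1 at 24 h (2). With the filter on dim genes (11936 genes, 34 of the 36), 1 was lower at 40 mpk 6 h (0) and 1 higher at 80 mpk 24 h (0). After quantile normalization 0 were higher at 40 mpk 24 h (1), 1 was lower between 12 and 6 h (3), 0 differed between doses at 12 h and 0 at 36 h (1 each), and 5 differed across vehicle times (3). With the trend and robust variance prior 1 was lower at 40 mpk 6 h. With only the groups compared, 6 were lower at 40 mpk 12 h (11), 0 at 80 mpk 6 h (3) and 2 at 80 mpk 36 h (11).

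With the muscle and fibroblast means as covariates 1 was lower at 40 mpk 6 h, 1 higher at 80 mpk 24 h, 7 lower at 80 mpk 36 h and 1 higher under multiple dosing at 36 h (0), with 5 called between 12 and 6 h and 6 between doses at 36 h. Without the muscle-rich arrays 1 was lower at 40 mpk 6 h and 4 at 80 mpk 36 h. That fit kept just replicate 2 of 80 mpk at 6 h, replicate 4 of 40 mpk at 24 h and replicate 3 of 40 mpk at 36 h. Counts that rest on these groups are not given. With the macrophage mean, added after seeing the data, 1 was lower at 40 mpk 6 h, 1 higher at 80 mpk 24 h and 1 lower at 80 mpk 36 h. The cause of these shifts was not tested.

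With the replicate number as a block, 0 genes differed between doses at 12 h (1) and 34 were lower at 80 mpk 24 h, as reported. The numbers did not pair the arrays: same-numbered deviations correlated at -0.61 to 0.5 over 42 pairs, over 0.1 in 12, and in 0 comparisons did every pair exceed it.

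Leaving out 1 array at a time gave counts of 7 to 12 lower at 40 mpk 12 h, 29 to 32 at 40 mpk 24 h, 0 to 1 at 40 mpk 6 h, 0 to 1 higher at 40 mpk 24 h and at 80 mpk 24 h, 1 to 3 lower at 80 mpk 6 h, 18 to 25 at 12 h, 32 to 34 at 24 h, 3 to 14 at 36 h, and 32 to 34 under multiple dosing. The contrasts gave 0 to 3 genes (12 minus 6 h), 16 to 19 (24 minus 12 h), 22 to 24 (36 minus 24 h), 21 to 26 (schedules), and between doses 0 to 1 (12 h), 7 to 15 (24 h) and 0 to 5 (36 h). Falling further than Mcm3 gave 0 to 1 at 6 h, 1 to 3 at 24 h and 0 to 1 at 36 h, and changes above that of Mcm3 16 to 25 at 6 h. Falling further than Bub1 gave 0 to 3 at 6 h and 7 to 12 at 12 h, and changes above that of Bub1 16 to 30 at 36 h. Across vehicle times 2 to 3 were called.

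The groups compared held 3 to 5 arrays. Rad51b was near the array's lowest intensity. Bard1 was dim too, at 0.139 with vehicle at 24 h, against array medians of 0.109 to 0.131. Whether this limited its fall was not tested.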
